A study of Homo sapiens with 4 samples.

Results

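The integrin and laminin genes are 36 of the 58735 genes counted in each library: 26 integrin subunits (18 alpha and 8 beta) and 10 laminin chains. They were taken by gene symbol as members of these families, without regard to their levels. The counts came from MKN-45, an established line derived from a human gastric cancer. Of 4 libraries, 2 were from cells infected with a lentivirus meant to overexpress SIX2, a homeobox transcription factor, and labelled SIX2 overexpression; 2 were from cells infected with a control lentivirus. All cells were selected with puromycin for stable infection, so infection and selection are shared by both groups. The titles number the libraries 1 and 2 within each group, and the design text speaks of 2 repeats while the treatment protocol speaks of triplicates. The labels name neither the viral backbone, the promoter of the transgene nor the number of clones, and do not say whether the repeats were separate cultures. P-values therefore measure the spread between these libraries, which may be technical.

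Integrins are cell surface receptors made of 1 alpha and 1 beta subunit. The pair decides the ligand: ITGA3, ITGA6 and ITGA7 bind laminins, ITGA1, ITGA2, ITGA10 and ITGA11 bind collagens, and ITGA5, ITGA8, ITGA2B and ITGAV read the RGD sequence of fibronectin, vitronectin and related proteins. ITGB1 is the common partner of most alpha subunits, whereas ITGB4 pairs with ITGA6 alone and anchors epithelial cells through hemidesmosomes. Laminins are the main adhesive proteins of the basement membrane, each a trimer of an alpha, a beta and a gamma chain, and it is the alpha chain that the integrins grip. LAMA3 and LAMB3 belong to laminin-332 of epithelial attachment sites. LAMA5 with LAMB1 or LAMB2 and LAMC1 gives laminin-511 and laminin-521, and LAMA1 is the alpha chain of laminin-111 of embryonic basement membranes.

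Libraries held between 14792869 and 16777792 counts, and the 36 genes took 0.402% to 0.509% of them. The SIX2 transcript itself did not follow the virus label. It had 379 and 605 counts in SIX2-labelled replicates 1 and 2, against 369 and 597 counts in control replicates 1 and 2, so every direction given here by virus label compares labels and not levels of SIX2. Libraries with the same number resembled each other more than libraries of the same group: log2 CPM correlated at 0.9895 (number 2) and 0.995 (number 1) within a number and at 0.921 between replicates of either group (Pearson's r across genes, which are not independent replicates). Of 10 epithelial markers, the keratins KRT8, KRT18 and KRT7 stood between 393 and 3549 CPM and EPCAM between 8.91 and 12.2 CPM, but ESRP1 had 0 counts in all 4 libraries and KRT19 had at most 2. Among 9 gastric markers MUC1 was at 191 to 265 CPM, MUC5AC at 7.23 to 15.3 CPM and CLDN18 at 1.88 to 4.84 CPM. MUC6 and TFF1 were low, at 0.801 to 1.27 CPM and 0.179 to 1.74 CPM. TFF3 had 0 counts, and TFF2, PGC and GKN1 had at most 20 counts in any library. The gastric identity of the line was not tested beyond these markers. Of 8 leukocyte markers, PTPRC, CD3E, CD3D and MS4A1 had 0 counts throughout.

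Between the groups of the design, none of the integrin or laminin genes passed the test. Of the 36 genes, 25 had enough counts to be tested, and 0 of them passed the threshold (edgeR quasi-likelihood test, adjusted p under 0.05), against 0 of 16343 genes in all (0%). Before adjustment, p was under 0.05 for 0 of the 25 and for 12 of all genes by edgeR. DESeq2 and limma-voom called 0 genes each, and 7 (DESeq2) and 10 (limma-voom) had an unadjusted p below that value. With the title number as a further term 0 members passed, against 0.049% of all genes. The log2 fold changes of the 25 ran from -1.08 (ITGAD) to 0.55 (ITGA2B), with a median of 0.0047, against -0.0025 over all genes tested. LAMC3, a laminin gamma chain, had the lowest unadjusted p among the 24 genes with a mean of at least 1 CPM. It was at 43.4 and 41.1 CPM in SIX2-labelled replicates 1 and 2, against 46.3 and 49.6 CPM in control replicates 1 and 2 (log2 fold change -0.18, SE 0.20, adjusted p = 0.9999, edgeR). The labels did not overlap for LAMC3, and among the tested members this was also so for ITGAD, at 8 and 8 counts in SIX2-labelled replicates 1 and 2, against 21 and 12 counts in control replicates 1 and 2. That makes 2 of 25, or 8%, where 11.8% of all tested genes do not overlap. Both lay lower in the SIX2-labelled libraries, as did 5.8% of all genes, and 0 lay higher, against 5.99%. ITGAD entered the test only through the control libraries, where it is high. Its lower side and its log2 fold change are therefore no separate support.

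Within a number there is 1 library of each label, so those values describe libraries and have no replicate check. The SIX2-labelled library was above the control for 10 of 24 members in number 2 and for 15 of 24 in number 1, and the sign differed between numbers for 15 of the 24. Over all genes tested the SIX2-labelled library was below the control for 49.4% in number 2 and for 49% in number 1. For 7 of the 24 members, ITGA6, ITGAV, ITGB1, ITGB4, ITGB5, LAMB3 and LAMC1, the pairs lay on opposite sides of 1 by more than counting error. The share of all genes that differ in sign, or by more than counting error, was not computed. Neither count is therefore shown to be particular to these families. ITGB1, the shared beta subunit, had a ratio of SIX2-labelled to control of 0.902 in the pair numbered 2 (95% interval 0.877 to 0.927), against 1.09 in the pair numbered 1 (1.06 to 1.12). For LAMB3 it was 1.13 (1.09 to 1.18) in number 2 and 0.938 (0.907 to 0.970) in number 1. Only LAMA1 and LAMA5 were below 1 by more than counting error in both. LAMA5, the alpha chain with the highest count, had ratios of 0.757 (0.742 to 0.773) in number 2 and 0.975 (0.959 to 0.992) in number 1; LAMA1 had 0.865 (0.810 to 0.923) and 0.886 (0.801 to 0.979). Intervals are exact binomial and cover counting error only. The difference between the pairs cannot be tested, because each number holds 1 library of each label. Across the 24 members the log2 ratio of the pair had a Spearman correlation with exon length of -0.29 in number 2 and 0.10 in number 1, a description over genes that share their libraries.

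**Figure D1:**
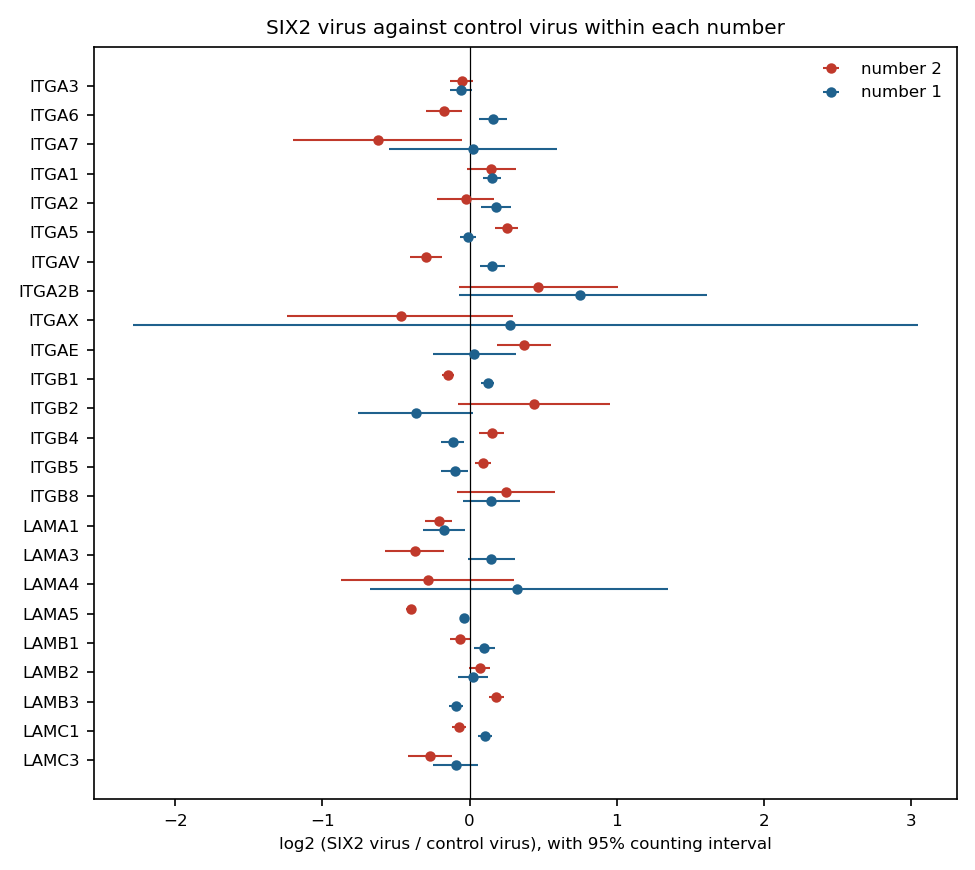
Log2 ratio of the SIX2-labelled to the control library for the 24 integrin and laminin genes with a mean of at least 1 CPM, within number 2 (red) and within number 1 (blue). Bars are 95% counting intervals, and each point rests on 1 library of each label. Most ratios lie within 0.5 of 0 on the log2 scale, and the numbers often fall on opposite sides, as for ITGB1, ITGB4 and LAMB3.

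The same genes differed widely between the libraries numbered 2 and those numbered 1. The labels give the number no meaning beyond the repeat, and each number holds 1 SIX2-labelled and 1 control library. P-values by number take these 2 libraries as replicates, although they may not be independent repeats of whatever the number marks. The comparison was also chosen with the split by number already known, so its calls describe these libraries. Of the 25 tested members, 18 passed the threshold: 7 were higher and 11 lower in number 2 (edgeR quasi-likelihood test, Benjamini-Hochberg adjustment over all genes). That is 72% of the members, where 43.8% of all 16343 genes tested passed, 28% higher against 22.2% of all genes, and 44% lower against 21.6%. Changes of at least 2-fold were called in 10 members, or 40%, against 16.3% of all genes. Members too low for the test are not in these shares. ITGAX, counted here as higher and at least 2-fold, entered the test only through the number in which it is high. The median log2 change was -0.26 over the tested members and 0.01 over all genes tested. All 18 had the same direction between the SIX2-labelled libraries as between the control libraries. A call on these same libraries nearly requires this, so it is no separate support. In RNA of whole cultures, fewer cells of a kind and less RNA per cell cannot be told apart. The count of lower members was 7 without control replicate 1, against 11 with all libraries.

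**Figure D2:**
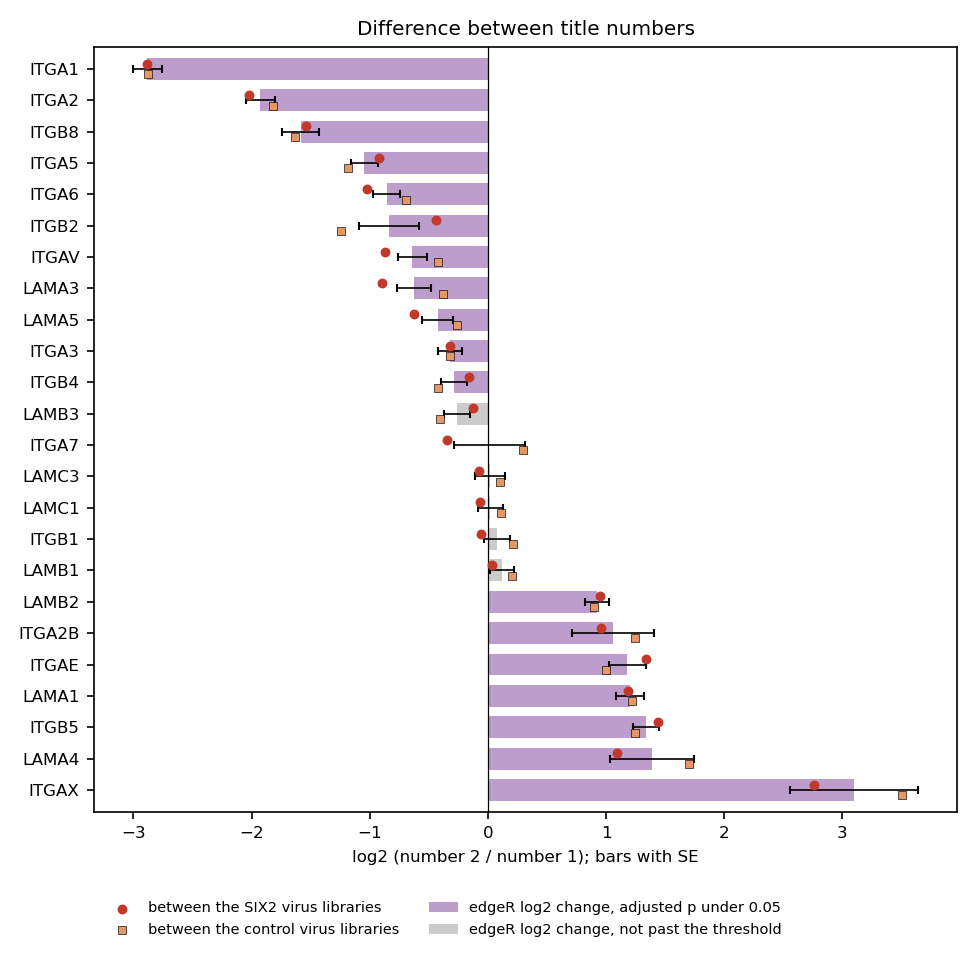
Log2 change of number 2 over number 1 for the 24 integrin and laminin genes with a mean of at least 1 CPM. Bars give the edgeR estimate with its SE, purple where the adjusted p was under 0.05. Points give the ratio between the SIX2-labelled libraries (circles) and between the control libraries (squares). ITGA1 lies lowest at -2.88 and ITGAX highest at 3.10. ITGAX had 4 and 3 counts in the SIX2-labelled and control libraries of number 1.

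Of the 4 collagen-binding alpha subunits, ITGA1 and ITGA2 were high enough to test, and they had the lowest log2 changes of the tested members. ITGA1, the alpha subunit of a receptor for collagen IV and collagen I that also recognises laminin-111, had 37.9 CPM in the SIX2-labelled and 34.2 CPM in the control library of number 2, against 279 and 252 CPM in the SIX2-labelled and control libraries of number 1. It was 7.37-fold lower in number 2 (log2 change -2.88, SE 0.12, adjusted p = 1.78e-09, edgeR quasi-likelihood test). The small gene PELO lies within ITGA1 on the same strand and shares exon bases with it, so some of their reads cannot be told apart; PELO was at 46.7 and 42.9 CPM in number 2, against 78.6 and 79.2 CPM in number 1 (log2 change -0.82, SE 0.11, adjusted p = 6.51e-05, edgeR). ITGA2, the collagen receptor subunit of epithelia and platelets, is the next gene on the same strand, 30115 bases downstream on chromosome 5. It had 26.5 and 27.0 CPM in the SIX2-labelled and control libraries of number 2, against 108 and 95.1 CPM in those of number 1. That was a 3.80-fold fall (log2 change -1.92, SE 0.12, adjusted p = 5.44e-08, edgeR). In both genes every library numbered 2 lay far below every library numbered 1. The other collagen receptor subunits were too low to test. ITGA10 had 4 and 13 counts in the SIX2-labelled and control libraries of number 2, against 2 and 3 counts in those of number 1, a pooled ratio of 3.29 (95% counting interval 1.17 to 11.4), and so lay on the other side from ITGA1 and ITGA2. ITGA11 overlapped, with 4 and 8 counts in number 2, against 1 and 7 counts in number 1.

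The promoters of this neighbouring pair are shown because both genes fell with number. The RefSeq windows (GRCh38.p14, plus strand, 250 bases before the start and 50 after, written 5′ to 3′) are chr5:52787666-52787965 for ITGA1 and chr5:52989102-52989401 for ITGA2. The AP-1 letters TGANTCA, which read the same on both strands and would stand in capitals, occur in neither.
ITGA1: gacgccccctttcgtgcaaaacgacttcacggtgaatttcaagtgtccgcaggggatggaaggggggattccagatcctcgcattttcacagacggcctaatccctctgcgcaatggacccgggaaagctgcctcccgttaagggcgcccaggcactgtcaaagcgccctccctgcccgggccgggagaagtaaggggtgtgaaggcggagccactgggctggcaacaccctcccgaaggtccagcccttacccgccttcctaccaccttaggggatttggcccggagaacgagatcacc
ITGA2: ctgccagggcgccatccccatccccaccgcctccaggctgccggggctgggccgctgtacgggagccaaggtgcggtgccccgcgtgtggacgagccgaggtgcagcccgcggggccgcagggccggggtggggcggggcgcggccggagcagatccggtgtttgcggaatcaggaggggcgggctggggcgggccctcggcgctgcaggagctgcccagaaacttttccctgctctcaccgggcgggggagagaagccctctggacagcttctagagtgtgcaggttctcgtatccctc

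Laminin-binding alpha subunits were lower in number 2 with 1 exception. ITGA6, which pairs with ITGB1 or ITGB4, had 63.7 and 71.8 CPM in the SIX2-labelled and control libraries of number 2, against 129.6 and 116 CPM in those of number 1 (log2 change -0.86, SE 0.11, adjusted p = 5.84e-05, edgeR). ITGA3, a receptor for laminin-332 and laminin-511, had 154 and 160.1 CPM in number 2, against 192 and 199.9 CPM in number 1. Its change was smaller, at -0.32 (SE 0.10, adjusted p = 0.0238, edgeR), and its call ended without control replicate 1 (adjusted p = 0.269) or without SIX2-labelled replicate 1 (adjusted p = 0.166), and with the virus label as a further term (adjusted p = 0.0537). ITGA7, the laminin receptor subunit of muscle, was low and overlapped, at 2.73 and 4.19 CPM in number 2 and 3.46 and 3.41 CPM in number 1.

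ITGB4, the hemidesmosome subunit, lay close to the threshold. It had 149 and 134.5 CPM in the SIX2-labelled and control libraries of number 2, against 167 and 180.3 CPM in those of number 1 (log2 change -0.29, SE 0.11, adjusted p = 0.0462, edgeR). The groups did not overlap, but the call ended under each of 8 alternatives, among them leaving out control replicate 1 (adjusted p = 0.394), control replicate 2 (0.0679) or SIX2-labelled replicate 1 (0.166). Per exon length, ITGB4 stood at 1.81 to 2.26 times ITGA6 in number 2 and at 1.24 to 1.5 times in number 1 (ratios of TPM, which is scaled to exon length and library).

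ITGB1 itself was not called between numbers. It had 577 and 640.3 CPM in the SIX2-labelled and control libraries of number 2, against 602 and 552 CPM in those of number 1 (log2 change 0.08, SE 0.11, adjusted p = 0.602, edgeR). Per length it was the most abundant integrin subunit in each library, at 313 and 367 TPM in number 2, against 337 and 311 TPM in number 1. The alpha subunits ITGA1 to ITGA11, which pair with it, summed without its further partner ITGAV to 179 and 183 TPM in number 2, against 380.5 and 369.9 TPM in number 1. This sum was above ITGB1 in number 1 and below it in number 2, while ITGB1 kept within 311 to 367 TPM.

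ITGA5, the fibronectin receptor subunit, was the most abundant alpha subunit per length in all 4 libraries, at 68.0 to 76.6 TPM in number 2, against 150 to 152 TPM in number 1. It had 178 and 149 CPM in the SIX2-labelled and control libraries of number 2, against 337 and 339.9 CPM in those of number 1. The fall was 2.07-fold (log2 change -1.05, SE 0.12, adjusted p = 1.11e-05, edgeR). Its promoter window on the minus strand, chr12:54419217-54419516, holds the AP-1 letters once, in capitals. They begin 6 bases before the RefSeq start and run onto it.
ITGA5: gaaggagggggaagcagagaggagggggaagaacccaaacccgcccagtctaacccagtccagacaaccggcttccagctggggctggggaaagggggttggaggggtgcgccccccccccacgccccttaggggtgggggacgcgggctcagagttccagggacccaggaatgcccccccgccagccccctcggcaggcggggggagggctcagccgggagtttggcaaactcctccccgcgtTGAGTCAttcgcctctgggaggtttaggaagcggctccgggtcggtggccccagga

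ITGAV fell, and of its beta partners ITGB5 rose, ITGB8 fell and ITGB1 was not called. ITGAV, which takes ITGB1, ITGB3, ITGB5, ITGB6 or ITGB8 as its partner, had 79.4 and 97.4 CPM in the SIX2-labelled and control libraries of number 2, against 145 and 130.2 CPM in those of number 1 (log2 change -0.64, SE 0.12, adjusted p = 0.000961, edgeR). ITGB5, the vitronectin receptor subunit, had 323 and 303 CPM in number 2, against 119 and 128 CPM in number 1. It rose 2.53-fold (log2 change 1.34, SE 0.11, adjusted p = 6.54e-07, edgeR), and no library overlapped. ITGB8, the subunit of a receptor that activates latent TGF-beta, had 10.2 and 8.61 CPM in number 2, against 29.6 and 26.7 CPM in number 1, a 3.0-fold fall (log2 change -1.58, SE 0.16, adjusted p = 4.51e-06, edgeR). ITGB6, the epithelial partner, had 0 and 3 counts in number 2 and 7 and 5 counts in number 1, and ITGB3 had at most 2 counts. Per length ITGB5 stood at 3.96 to 5.18 times ITGAV in number 2 and 1.05 to 1.25 times in number 1.

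The platelet subunit ITGA2B, whose usual partner is the all but absent ITGB3, was low. It had 4.37 and 3.17 CPM in the SIX2-labelled and control libraries of number 2, against 2.25 and 1.34 CPM in those of number 1 (log2 change 1.06, SE 0.35, adjusted p = 0.0256, edgeR). The call ended without control replicate 1 (adjusted p = 0.225), without SIX2-labelled replicate 2 (adjusted p = 0.0773) and by DESeq2 (adjusted p = 0.113).

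Among the subunits named for leukocytes, ITGAE stood apart in level. ITGAE, the partner of ITGB7 in a receptor for E-cadherin, had 34.6 and 26.7 CPM in the SIX2-labelled and control libraries of number 2, against 13.7 and 13.4 CPM in those of number 1. It rose 2.27-fold (log2 change 1.18, SE 0.16, adjusted p = 5.63e-05, edgeR). Its partner ITGB7 had at most 6 counts in any library. The gene HASPIN lies on the opposite strand over exons of ITGAE, and their reads cannot be told apart without a known strand setting; HASPIN was at 21.9 and 21.6 CPM in number 2, against 14.9 and 15.4 CPM in number 1 (log2 change 0.52, SE 0.14, adjusted p = 0.00965, edgeR).

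ITGAX, a complement receptor subunit of myeloid cells, had 26 and 38 counts in the SIX2-labelled and control libraries of number 2, against 4 and 3 counts in those of number 1. The pooled ratio was 8.85 (95% counting interval 4.06 to 22.9), and the log2 change 3.10 (SE 0.54, adjusted p = 0.000478, edgeR). ITGAX entered the test only through number 2, where it is high, so its call adds no support beyond its counts. Its beta partner ITGB2 went the other way, at 4.69 and 3.47 CPM in number 2, against 6.37 and 8.21 CPM in number 1 (log2 change -0.84, SE 0.25, adjusted p = 0.0165, edgeR). The ITGB2 call ended without control replicate 1 (adjusted p = 0.163) and by DESeq2 (adjusted p = 0.0780). ITGAD had 8 and 12 counts in number 2 and 8 and 21 counts in number 1. The T cell subunit ITGAL had at most 1 count and the macrophage subunit ITGAM at most 8. Beside these subunits, the myeloid markers LYZ and TYROBP had at most 1 count in any library and CD14 at most 14, and the part of other cells in these values was not tested.

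**Figure D3:**
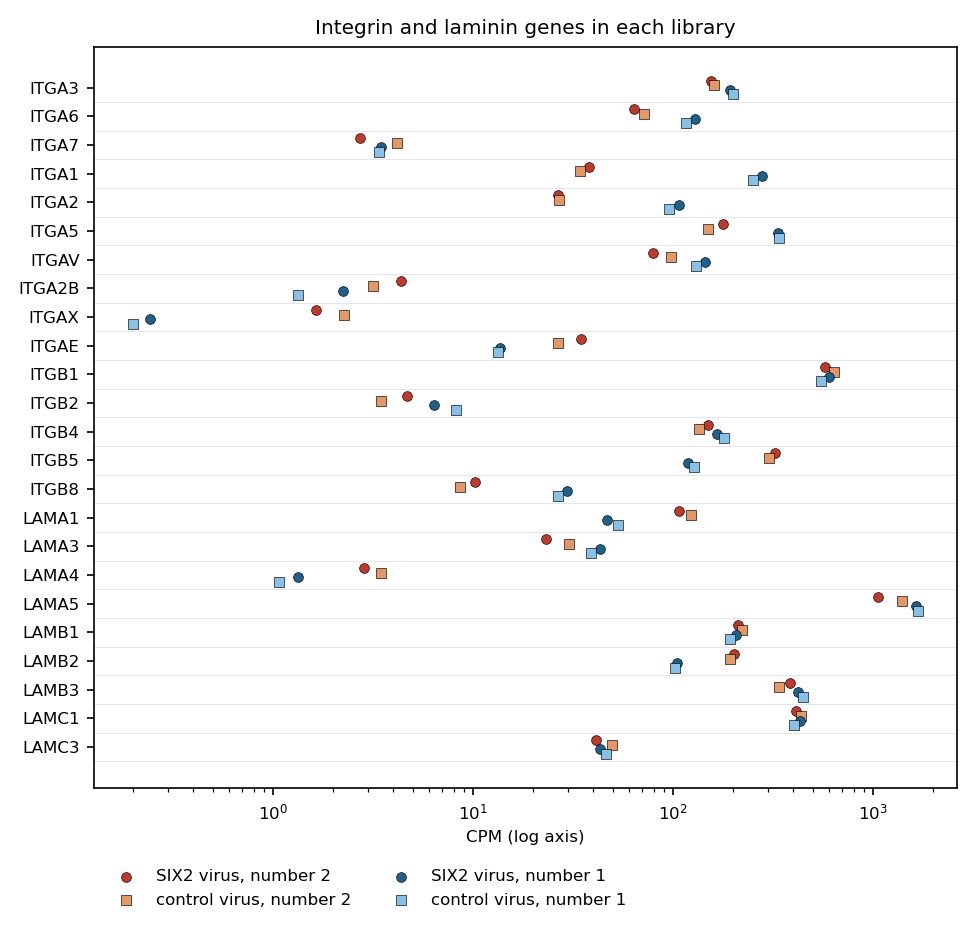
CPM on a log axis for the 24 integrin and laminin genes with a mean of at least 1 CPM, by library. Circles are SIX2-labelled and squares control libraries, red and orange for number 2, dark and light blue for number 1; the colour families lie apart for genes such as ITGA1 and ITGB5 and overlap for ITGA7, ITGB1, LAMC1 and LAMC3, and LAMA5 is highest at 1062 to 1676 CPM.

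Laminin alpha chains split, with LAMA1 and LAMA4 higher and LAMA3 and LAMA5 lower in number 2. LAMA1 had 107 and 123.5 CPM in the SIX2-labelled and control libraries of number 2, against 46.9 and 53.0 CPM in those of number 1, 2.31-fold higher (log2 change 1.21, SE 0.12, adjusted p = 4.59e-06, edgeR). LAMA4, the alpha chain of vascular and muscle basement membranes, was low and also higher, at 2.85 and 3.47 CPM in number 2, against 1.34 and 1.07 CPM in number 1 (log2 change 1.39, SE 0.36, adjusted p = 0.00654, edgeR). Without control replicate 1 the LAMA4 call ended (adjusted p = 0.0598). LAMA2, the alpha chain of muscle laminins, was too low to test, with 9 and 20 counts in number 2 and 8 and 3 counts in number 1.

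LAMA5 had 1062 and 1402 CPM in the SIX2-labelled and control libraries of number 2, against 1634 and 1676 CPM in those of number 1 (log2 change -0.43, SE 0.13, adjusted p = 0.0180, edgeR). The SIX2-labelled library of number 2 was the lowest of the 4. Without it the log2 change was -0.24 (adjusted p = 0.01), and the call ended without control replicate 1 (adjusted p = 0.124) or SIX2-labelled replicate 1 (adjusted p = 0.0862). ADRM1, on the opposite strand, shares exon bases with LAMA5; it was at 96.5 and 86.0 CPM in number 2, against 130.4 and 136.6 CPM in number 1. Of the summed alpha chains per length, LAMA5 made up 89.6% and 90.5% in number 2, against 95% in both libraries of number 1, and LAMA1 8.12% and 7.18%, against 2.45% and 2.70%.

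LAMA3, the alpha chain of laminin-332, had 23.3 and 30.1 CPM in the SIX2-labelled and control libraries of number 2, against 43.4 and 39.1 CPM in those of number 1 (log2 change -0.63, SE 0.14, adjusted p = 0.00303, edgeR). Its partner in laminin-332, LAMB3, was not called. LAMB3 had 384 and 339 CPM in number 2, against 419.9 and 448 CPM in number 1 (log2 change -0.26, SE 0.11, adjusted p = 0.0703, edgeR), and it passed only without SIX2-labelled replicate 2 (log2 change -0.36, adjusted p = 0.000223). Per length LAMB3 stood at 35.2 to 51.7 times LAMA3 in number 2 and at 30.3 to 35.8 times in number 1. The windows of LAMA3 and LAMB3 are shown because they and that of ITGA5 are the only ones among the members with the AP-1 letters, again in capitals. The LAMA3 window is chr18:23872770-23873069 on the plus strand, inside the gene as the files give it, and the LAMB3 window, 1 of 3 for that gene, is chr1:209651325-209651624 on the minus strand.
LAMA3: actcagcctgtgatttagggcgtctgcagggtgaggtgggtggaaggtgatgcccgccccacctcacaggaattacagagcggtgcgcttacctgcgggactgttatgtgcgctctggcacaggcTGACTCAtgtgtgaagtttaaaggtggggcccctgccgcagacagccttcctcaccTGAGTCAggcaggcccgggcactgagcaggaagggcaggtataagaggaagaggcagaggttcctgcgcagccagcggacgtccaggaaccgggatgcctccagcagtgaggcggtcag
LAMB3: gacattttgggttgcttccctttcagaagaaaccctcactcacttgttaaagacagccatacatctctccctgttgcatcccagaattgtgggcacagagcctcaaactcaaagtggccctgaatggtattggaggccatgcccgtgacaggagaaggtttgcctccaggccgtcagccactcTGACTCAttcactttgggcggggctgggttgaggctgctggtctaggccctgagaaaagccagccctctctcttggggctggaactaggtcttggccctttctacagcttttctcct

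RefSeq gave promoter windows for 25 of the 36 members, 32 windows in all. The AP-1 letters TGANTCA were in 3 of these 32 windows, each of another member, where 7.71% of the 35116 windows searched hold them. The search left out a chromosome that holds none of the members. The letters TCANGTTTC, a motif of SIX2, searched on both strands, were in 0 of the 32, where 1.03% of the windows searched hold them. A loose NF-kB pattern was in 25 of the 32 windows and in 58.7% of the windows searched. A match describes letters only, and no match says nothing of SIX2 elsewhere at these genes.

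LAMB2 rose while LAMB1 and the gamma chains counted here were not called. LAMB2, the beta chain of laminin-521, had 202 and 192 CPM in the SIX2-labelled and control libraries of number 2, against 105 and 103 CPM in those of number 1 (log2 change 0.92, SE 0.10, adjusted p = 1.40e-05, edgeR). LAMB1, which occupies the same place in laminin-511, had 212 and 222 CPM in number 2, against 207 and 193 CPM in number 1 (log2 change 0.12, SE 0.10, adjusted p = 0.384, edgeR). Per length LAMB2 stood at 1.03 to 1.13 times LAMB1 in number 2 and at 0.601 to 0.633 times in number 1. LAMC1, the gamma chain of most laminins, had 415 and 435 CPM in number 2, against 434 and 404 CPM in number 1 (log2 change 0.02, SE 0.11, adjusted p = 0.898, edgeR). LAMC3 had 41.1 and 49.6 CPM in number 2, against 43.4 and 46.3 CPM in number 1 (log2 change 0.02, SE 0.13, adjusted p = 0.926, edgeR). Both gamma chains overlapped between numbers.

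Set side by side, receptors and the laminin chains they bind did not all move the same way. ITGA3, ITGA6 and ITGB4 and their ligand chains LAMA3 and LAMA5 were all called lower in number 2, and ITGB1 was not. The calls of ITGA3, ITGB4 and LAMA5 each ended when single libraries were left out, as given above. Summed per length, ITGA3, ITGA6 and ITGA7 stood at 84.4 and 96.5 TPM in number 2, against 134 and 131 TPM in number 1, while LAMA3 and LAMA5 stood at 247 and 345 TPM, against 395 and 406 TPM. LAMA1 rose while ITGA1 and ITGA2, which can bind laminin-111 beside collagen, fell together with ITGA6, and ITGA7 was not called. ITGA1 and ITGA2 summed to 17.6 and 18.1 TPM in number 2, against 96.5 and 86.6 TPM in number 1, and LAMA1, LAMA2 and LAMA4 summed to 22.9 and 28.3 TPM, against 10.5 and 11.7 TPM. By virus label, LAMA3 with LAMA5 stood at 247 TPM in the SIX2-labelled library of number 2, against 345 TPM in its control, and at 395 TPM, against 406 TPM, in number 1, so within number 2 the labels lay further apart than the control libraries of the numbers did.

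**Figure D4:**
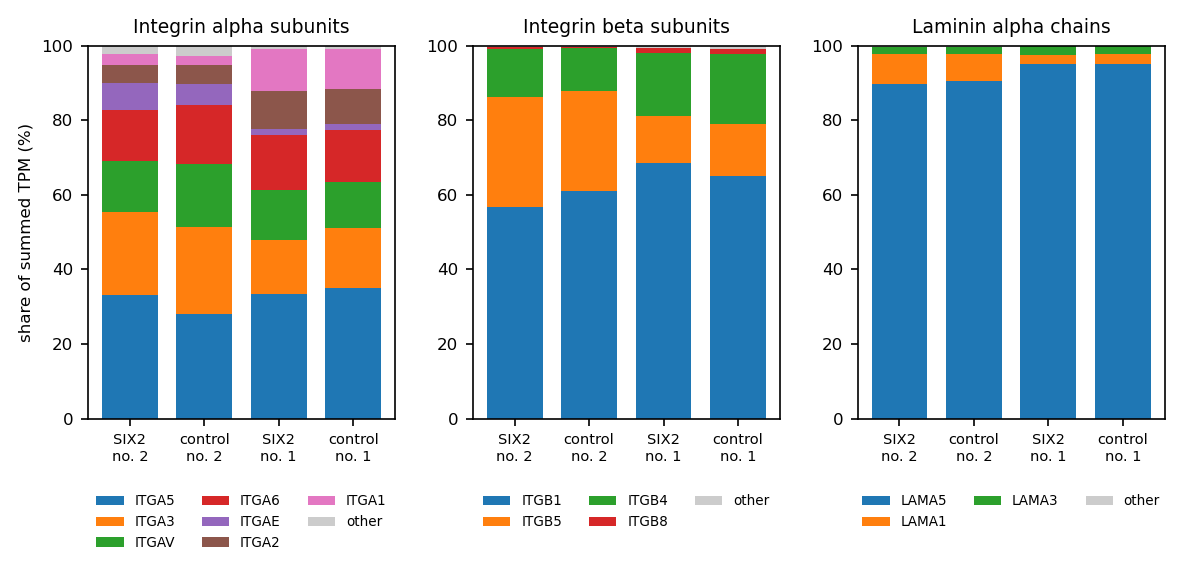
Shares of the summed TPM of the integrin alpha subunits, the integrin beta subunits and the laminin alpha chains in each library; each stack adds to 100% of its own class and grey holds the remaining members. ITGA1 holds 2.63% to 2.88% of the alpha subunits in number 2, against 10.6% to 11.3% in number 1, and ITGB5 holds 26.9% to 29.5% of the beta subunits, against 12.7% to 14%.

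Ordered by TPM, the leading members were ITGB1, LAMA5, LAMB3, LAMC1 and ITGB5 in number 2, with means of 340.1, 290.2, 258, 169.5 and 163 TPM. In number 1 they were LAMA5, ITGB1, LAMB3, LAMC1 and ITGA5, with means of 391, 324, 312, 168 and 151 TPM. In number 2 ITGB1 and LAMA5 overlapped in their ranges, 313 to 367 and 242 to 338 TPM, but within each library ITGB1 was above LAMA5. LAMA5 and LAMB3 overlapped too, LAMB3 reaching 267 TPM, and LAMB3 was above LAMA5 in the SIX2-labelled library only. LAMC1, at 161 to 178 TPM, and ITGB5, at 162 to 163 TPM, overlapped as well, and in the SIX2-labelled library of number 2 ITGB5 stood above LAMC1. In number 1 ITGB1 (311 to 337 TPM) and LAMB3 (301 to 323 TPM) overlapped. By these means ITGB5 was the fifth in number 2 and the ninth in number 1, and ITGA5 was the eighth in number 2 and the fifth in number 1.

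The remaining 12 members had a mean under 1 CPM and at most 21 counts in any library. ITGA4, a receptor subunit for VCAM1 and fibronectin, and ITGA8, the nephronectin receptor subunit of kidney development, had 0 counts in all 4 libraries, which allows up to 0.179 to 0.203 CPM by a floor of 3 counts. ITGA9, a tenascin receptor subunit, had 2 counts in the SIX2-labelled library of number 2 and 0 in the others.

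Cytoplasmic partners of integrins were called by number about as often as genes in general. Of 30 talin, kindlin and focal adhesion genes, 29 were tested, 7 were higher and 7 lower in number 2, where 43.8% of all genes tested passed, with a median log2 change of -0.01, and 0 passed between virus labels. TLN2, a talin that links beta tails to actin, had 24.2 and 31.3 CPM in the SIX2-labelled and control libraries of number 2, against 1.70 and 1.74 CPM in those of number 1 (log2 change 4.01, SE 0.22, adjusted p = 1.84e-08, edgeR). The docking protein NEDD9 was higher by 2.91 on the log2 scale and its relative BCAR1 lower, at -1.38, and TNS2, a tensin, was higher by 1.39. Among hemidesmosome partners 2 of 4 were lower, where 21.6% of all genes tested were. COL17A1, a transmembrane collagen, had 0.507 and 0.419 CPM in number 2, against 7.16 and 7.75 CPM in number 1. COL17A1 entered the test only through number 1, where it is high, so its call is no support. The tetraspanin CD151 had a log2 change of -0.51. PLEC and DST, which tie ITGB4 to keratin filaments, were not called (log2 change -0.29 and -0.23). Of 11 tetraspanin and lateral partners, 2 were higher and 3 lower, again near the 43.8% of all genes; TSPAN8 and CD81 had log2 changes of 2.68 and 0.78, and CD9 and IGSF8 of -1.07 and -1.02.

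Ligands were called in both directions. Of 14 other integrin ligands, 11 were tested, and 4 were higher and 7 lower in number 2, against 22.2% higher and 21.6% lower of all genes, with a median log2 change of -1.54. The 4 called higher were VTN (vitronectin), LTBP1, NPNT (nephronectin) and MFGE8, with log2 changes of 1.43, 1.14, 0.92 and 1.19, named here after their values were seen. ICAM1, the ligand of leukocyte integrins, had 18.4 and 19.7 CPM in the SIX2-labelled and control libraries of number 2, against 104 and 111 CPM in those of number 1 (log2 change -2.49, SE 0.12, adjusted p = 5.97e-09, edgeR). CYR61 and THBS1, matricellular proteins, and EDIL3, an RGD protein that binds ITGAV receptors, had log2 changes of -2.38, -1.54 and -2.42. Of 13 other basement membrane genes, 12 were tested, with 3 higher and 4 lower, against 22.2% and 21.6% of all genes, and a median log2 change of 0.07. The collagen IV chains COL4A6 and COL4A5 rose by 2.13 and 1.23 on the log2 scale. TINAGL1 and NID1, the nidogen that links laminin to collagen IV, had log2 changes of -0.68 and -2.44, NID1 on 3 to 26 counts. NID1, counted here as lower, entered the test only through number 1, where it is high. Among non-integrin laminin receptors BCAM, a receptor for LAMA5, was at 74.0 and 71.6 CPM in number 2, against 17.8 and 22.9 CPM in number 1 (log2 change 1.84, SE 0.14, adjusted p = 2.99e-07, edgeR). DAG1 was not called (log2 change 0.06), nor was RPSA (0.25), whose many pseudogenes make its counts uncertain. Between virus labels 0 members of these lists passed.

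Markers of fibroblasts and epithelia were called by number in both directions, and no endothelial marker was called. Of 9 fibroblast markers 6 were tested, with 3 higher and 2 lower, against 22.2% higher and 21.6% lower of all genes tested. VIM, which many cultured cells express, made up most of the summed level of the 9. That sum was 774 and 627 CPM in the SIX2-labelled and control libraries of number 2, against 382 and 346 CPM in those of number 1. VIM alone was at 493 and 338 CPM in number 2, against 245 and 224 CPM in number 1. The matrix genes LUM and DCN went the other way and were at or under 1.01 CPM in number 2, against 23.5 to 49.0 CPM in number 1. LUM entered the test only through number 1, where it is high. COL1A1 was at 274 and 279.5 CPM in number 2, against 56.9 and 54.1 CPM in number 1. COL1A2, PDGFRA and THY1 had at most 1 count in any library. Among epithelial markers 2 of 8 tested were higher, KRT8 and KRT18, and 4 were lower, against the same 22.2% and 21.6% of all genes. CDH1, which encodes E-cadherin, was at 8.05 and 5.32 CPM in number 2, against 20.4 and 22 CPM in number 1. CLDN7 was at 7.23 and 7.0 CPM in number 2, against 17.6 and 19.8 CPM in number 1. Of 9 gastric markers 5 were tested, with 0 higher and 1 lower, against the same 22.2% and 21.6% of all genes. The lower one was TFF1, with 6 and 3 counts in number 2, against 23 and 26 counts in number 1. TFF1 entered the test only through number 1, where it is high, so its call is no support. Of 5 endothelial markers only CDH5 was tested, at 7.68 to 11.8 CPM, and it was not called. PECAM1, VWF and TEK had at most 10, 16 and 2 counts in any library, and KDR had 0 counts. The part of these differences in the integrin and laminin values was not tested.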

How the data were processed

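Each deposited file holds the raw whole-number counts of 1 library by Ensembl gene, as read from the file headers and values. RNA was extracted with Trizol and sequenced on an Illumina NovaSeq, per the labels' protocols. The aligner, counter and strand setting were not given in the sources used here. As for the build, the one that the submitters' processing notes give is from mouse, whereas all 58735 identifiers, coordinates and exon lengths (in bases, deposited by the authors) equal human GENCODE 29 on GRCh38.

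The counts were tested with edgeR 4.0.16 under R 4.3.3 (filterByExpr, which kept 16343 genes; TMM; glmQLFit and glmQLFTest), with virus label or title number as the only term. P-values were adjusted by Benjamini-Hochberg over all genes, with a threshold of 0.05. The fit was also run on simulated counts with known changes, as a check of the code. Their spread was set the same for all genes, and the simulation by virus label held no difference by number. The simulation therefore says nothing of the power in these libraries. CPM express counts per 1000000 after TMM scaling, and TPM use the deposited exon lengths. Alternatives used DESeq2 1.42.0, limma 3.58.1 (voom), other scalings, filters and terms, and each library left out. Members with a mean of at least 1 CPM were described singly. From each other list up to 4 genes with the smallest adjusted p by number were named. Where fewer than 2 passed, up to 3 were named by mean CPM. Marker genes were named beside them, as were PELO, HASPIN and ADRM1, which share exons with members. Other protein-coding genes share exon bases on the opposite strand, among them DLD with LAMB1, METTL7B and BLOC1S1 with ITGA7, and ZNF740 with ITGB7. Members, lists and the comparison by number were chosen with earlier results of these data known. The value of 1 leukocyte marker is not reported here.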

Additional observations from a re-analysis of the deposited data

How the results depend on the processing

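Between numbers, the members called higher (7) and lower (11) stayed within 1.5 times under both other scalings, no filter, DESeq2, limma-voom and the virus label as a further term. The filter on a mean of 50 counts gave 4 higher, since members under that mean were not tested. Leaving out 1 library gave 7 to 12 lower members; the lone library of an arm is then assumed to vary like the others. Members called by all libraries that lost the call under another scaling, tool or term were ITGB4, ITGA3, ITGA2B and ITGB2, and no called member reversed. Between virus labels 0 members passed under every alternative; in leave-one-out fits the sign of 9 to 11 of 24 uncalled members changed. With the title number as a replicate block 8 of 16343 genes passed, 0 of them members, and deviations of same-numbered libraries correlated at 0.883; with 2 pairs and no label for the number, it is a hint from the data only. Depth limits members under 1 CPM.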
